A study of Mus musculus with 16 samples.

Results

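The genes described here encode subunits of the mitochondrial oxidative phosphorylation system, together with the complex I assembly factors that share the Nduf root. They were chosen by symbol, from Ndufa, Ndufb, Ndufc, Ndufs and Ndufv through Sdha to Sdhd, Uqcr, Cox4 to Cox8 and Atp5, among probe sets that name a single gene. The choice took in 90 of the 18193 genes on the array, read by 179 probe sets, and each gene is given by its probe set with the highest mean. Of these, 86 were tested among 10802 genes, because Cox8b, Cox7b2, Cox8c and Ndufb4 lay under a dim cutoff of log2 4 on all 16 arrays. For Ndufb4 this holds only for the probe set that names it alone. Those shared with Ndufb4b and Ndufb4c read from 9.8 to 11.44. The cells were P19CL6, a mouse embryonal carcinoma line that can form beating cardiac muscle in dimethyl sulfoxide (DMSO). The growth group was 3 samples without DMSO, passaged every 48 h. The other samples were kept in medium with 1% DMSO, renewed every 48 h, and were taken at day 4, 8 and 10 with 3 samples each and at day 6 and 12 with 2 each. No culture was kept as long without DMSO, so DMSO and time in culture cannot be told apart.

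Oxidative phosphorylation moves electrons from NADH through complex I, or from succinate through complex II, to complex III, cytochrome c and complex IV, where oxygen is reduced. The protons pumped on the way drive complex V, the ATP synthase. Most subunits are encoded in the nucleus, a few in mitochondrial DNA, and complex I in particular needs dedicated assembly factors that are not part of the finished enzyme. Heart muscle is rich in mitochondria, and complex IV there carries striated muscle isoforms, Cox6a2, Cox7a1 and Cox8b, in place of the widely expressed Cox6a1, Cox7a2 and Cox8a.

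Values are log2 intensities, and a change is a log2 difference of group means ± its standard error in a limma fit to all 16 arrays. A gene counts as called, higher or lower, where its p after Benjamini-Hochberg adjustment across the whole table is under 0.05. Correlations between arrays of a group ran from 0.956 to 0.992. Replicate A of day 8 was closer to day 6 (r of 0.990 to 0.992) than to the remaining arrays of its own day (0.956 to 0.967). Array means over 14 cardiac muscle markers ran from 4.09 to 6.94 within day 8. At day 12 the 3 probe sets of 18S ribosomal RNA averaged 8.37, against 5.24 to 6.32 in the other groups, and 24 probe sets for spiked-in poly-A controls averaged 6.11, against 4.72 to 4.91. The part of these controls in the day 12 results was not tested.

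All 14 cardiac markers were higher at day 12 than in growth, and their array means rose from 3.13 to 3.36 in growth to 10.8 to 10.92 at day 12. All 8 smooth muscle and fibroblast markers, 5 of 7 tested endothelium and blood markers and 3 of 3 tested endoderm markers (Afp, Ttr and Gata6) were also higher. The endoderm list held 6 genes, of which Sox17, Foxa2 and Alb did not pass the dim filter. Afp and Ttr averaged 2.77 and 2.88 in growth, so they passed it only through DMSO arrays. The same holds for most cardiac markers, such as Tnnt2, Myh6 and Actc1 (growth means of 2.99, 3.19 and 2.59). It also holds for Col1a1, Col1a2, Col3a1 and Postn and for all 7 tested endothelium and blood markers. For such genes a call lower than growth was hardly possible. Of 7 skeletal muscle markers only Acta1, which embryonic heart muscle also makes, passed the dim filter, and Myod1, Myog and Myf5 did not. All 8 embryonal carcinoma markers were lower, with array means of 11.28 to 11.55 in growth and 5.73 to 6.22 at day 12. The part of these markers in the results below was not tested. In such whole cultures, fewer cells of a type and less RNA per cell cannot be told apart.

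Calls among the respiratory genes leaned lower at day 4, by a share near that of all genes, and higher at day 12. Complexes differed at day 4, where complex I gave 14 of the lower calls and 3 of the higher ones. Complex V and the assembly factors also had more lower than higher calls. Complex III and the common subunits of complex IV had more higher ones, and complex II had no call. At day 4, 25 of the 86 tested were lower than in growth (29.1%, against 24.8% of all genes tested) and 13 were higher (15.1%, against 23.4%), with a median change of -0.21, and 48 were not called. At day 12, 38 were higher (44.2%, against 30.7% of all genes) and 11 were lower (12.8%, against 30.1%), with a median change of 0.41. The median over all genes tested was 0 at day 12. The 11 lower calls became 5 without day 12 replicate C. Both days share the same growth arrays. Set directly against each other, day 12 had 44 members higher than day 4 (51.2%, against 26.7%) and 5 lower (5.81%, against 25.0%). These 5 were Cox6b2, Cox7a2l, Cox7c, Ndufaf4 and Ndufaf6, and the count fell to 3 without day 4 replicate A or day 12 replicate A and to 2 without day 4 replicate B or day 12 replicate C. Over the whole course 66 of the 86 passed a moderated F test at the same adjusted p, which is 76.7% and the same share as the 76.7% of all genes.

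Most of these shifts were small. At day 4 only 4 members were called higher with a change of at least 1 log2, where 13.3% of all genes were, and 6 were called lower, where 13.6% were. At day 12 the same counts were 13 higher, where 22.5% of all genes were, and 1 lower, where 19.3% were. The single large fall at day 12 was that of Ndufaf6. The group mean was highest at day 12 for 42 of the 86 members and at day 10 for 21.

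**Figure D1:**
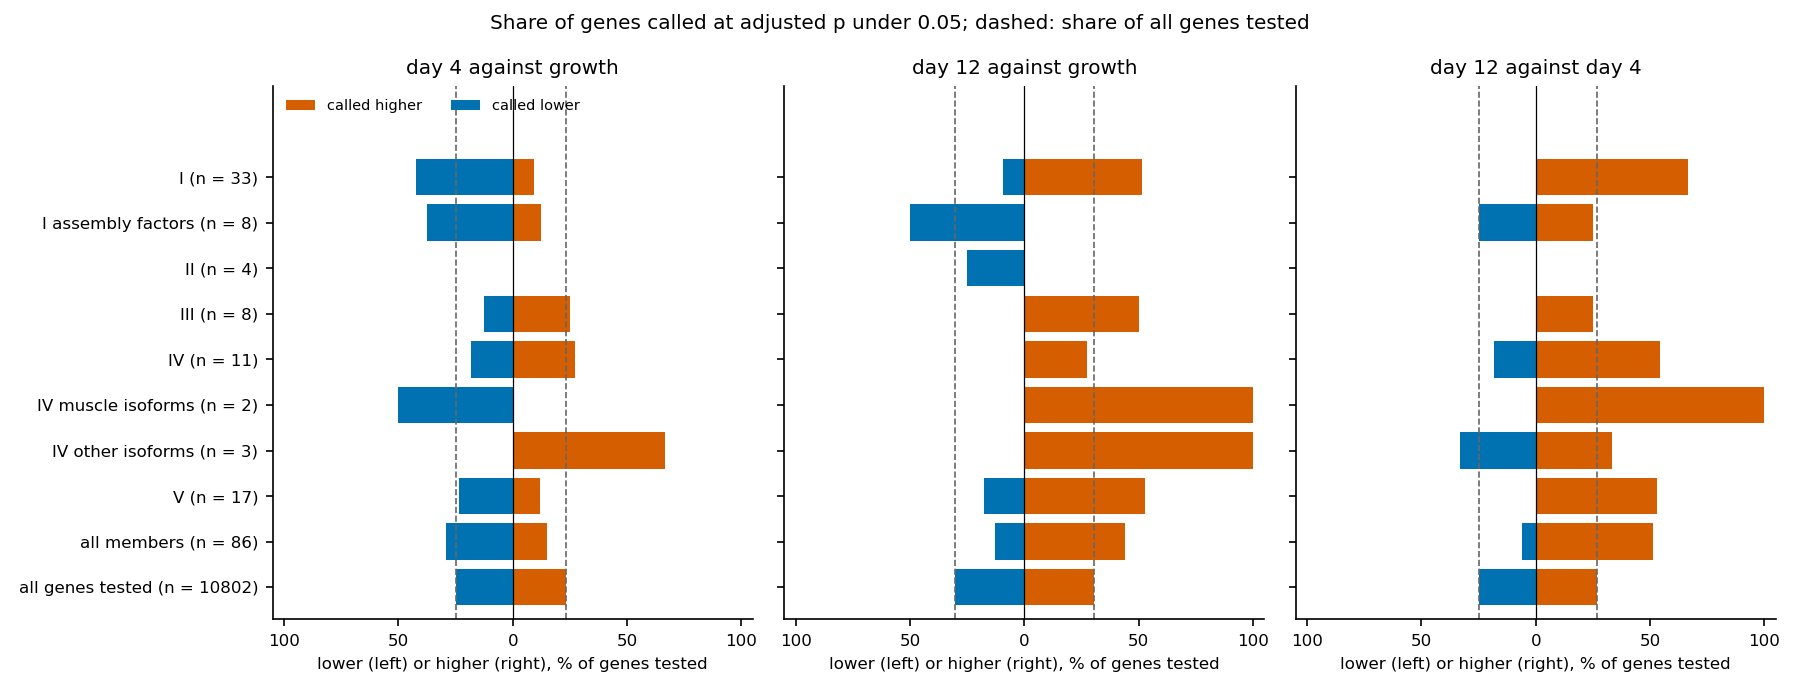
Share of tested genes called higher (right, orange) or lower (left, blue) at an adjusted p under 0.05, for each complex, all 86 members and all 10802 genes, in 3 comparisons. Dashed lines mark the share of all genes: complex I reached 42.4% lower at day 4 and 51.5% higher at day 12.

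At day 6, 11 members were higher than in growth (background 21.4%) and 22 were lower (21.8%). These counts rest on 2 arrays: the higher count was 5 without day 6 replicate B and 7 without replicate C, and the lower count was 13 and 8. Without growth replicate B the lower count was 14. The shares of all genes in these refits are not given here. At day 8, 12 were higher (25.8%) and 19 lower (27.2%), and 12 and 18 without the day 8 replicate A array. At day 10, 29 were higher (28.4%) and 10 lower (31.7%), with a median change of 0.31.

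Between neighbouring days the members moved most from day 8 to day 10. Between these days 26 were higher, where 7.62% of all genes were, and 1, Ndufaf6, was lower, where 8.21% were. All 33 complex I subunits tested had a positive difference, of 0.02 to 0.93 with a median of 0.42, while the median of all genes was -0.04. The count of 26 depends on single arrays: it was 11 without day 8 replicate A, 17 without day 8 replicate B, 10 without day 10 replicate A and 17 without day 10 replicate C. It was 5 in a fit of only these groups. The shares of all genes in these refits are not given here. A change in the members and a change in the power of the fit therefore cannot be told apart. By the same limma test, 3 members were higher from day 4 to 6 (3.49%, against 4.45% of all genes) and 2 lower (2.33%, against 3.31%). From day 6 to 8 there were 0 in either direction (background 0.0% and 0.0185%, the latter 2 of 10802 genes). From day 10 to 12, 4 were higher (4.65%, against 3.22%) and 0 lower (against 0.454%).

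**Figure D2:**
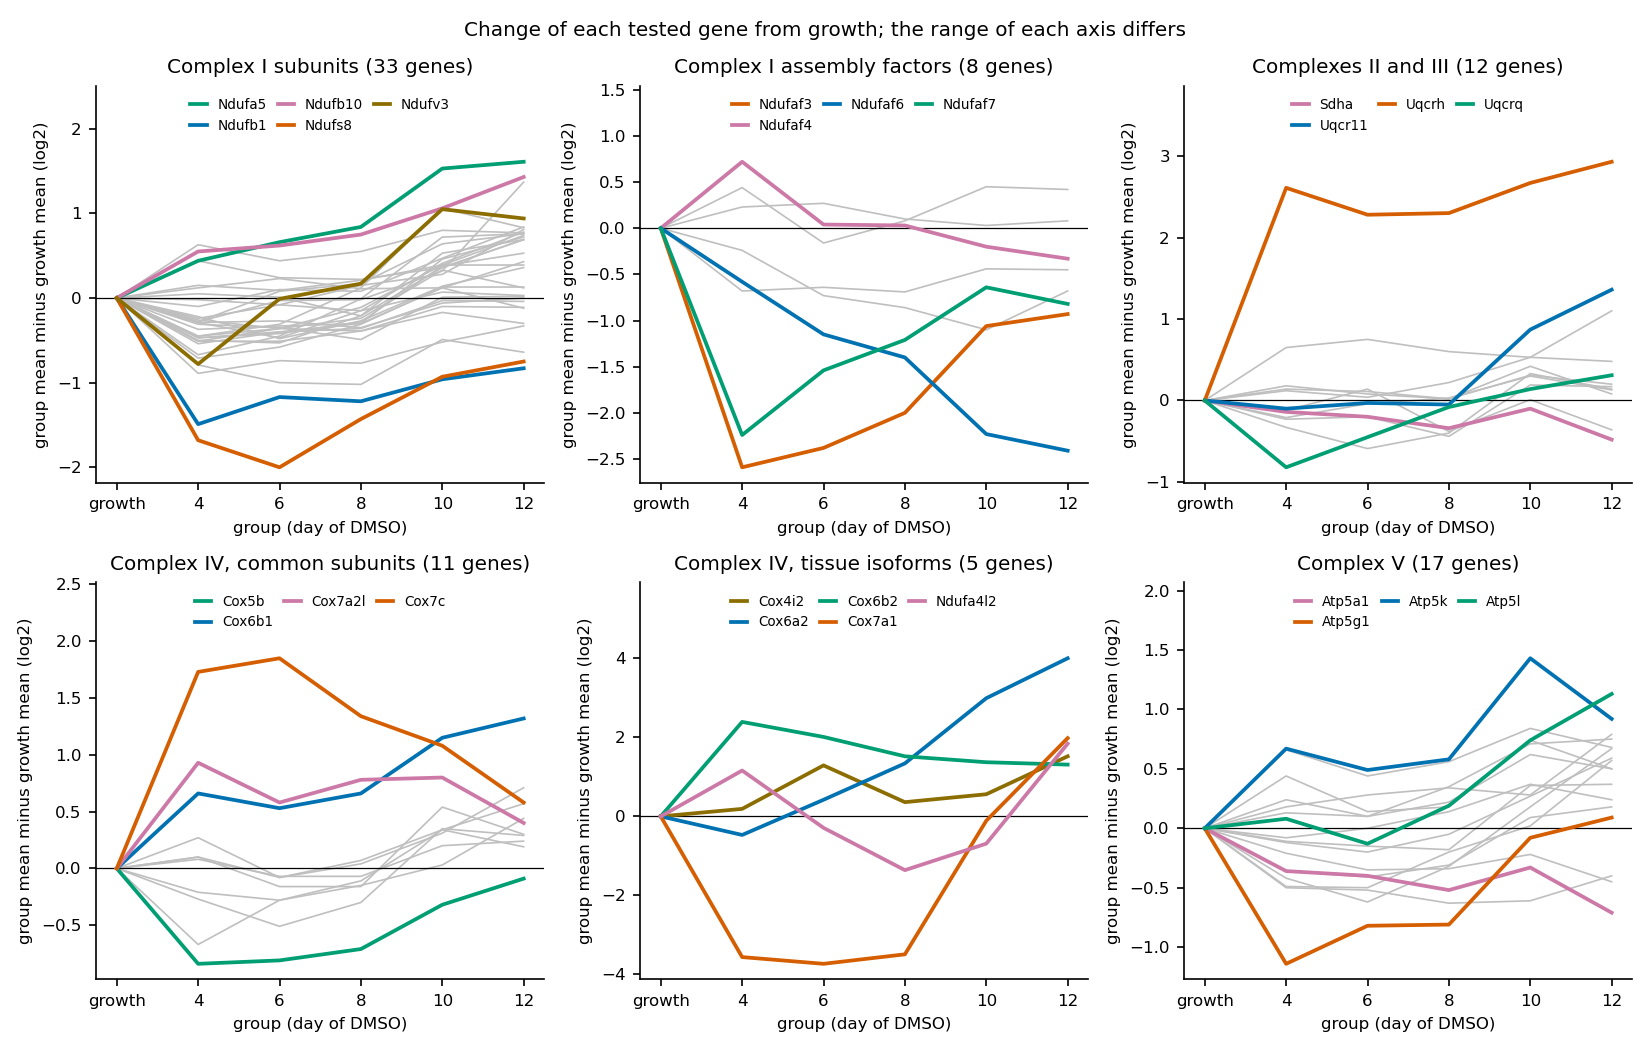
Change of each tested gene from its growth mean (vertical axis, log2) in growth and at days 4 to 12 of DMSO (horizontal axis), 1 line per gene and 1 panel per group of genes; named genes are coloured and axis ranges differ. Most complex I lines dip at days 4 to 8 and end above 0, while the assembly factors Ndufaf3, Ndufaf6 and Ndufaf7 stay below it.

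Promoter sequence was available for 74 of the 90 genes, from a RefSeq table of the bases around each start on GRCm38.p6. The 16 genes without it, which were not searched for any motif, included the striated muscle isoform Cox6a2, Cox4i2 and Ndufa4l2. The core bound by NRF1, a factor known for driving nuclear respiratory genes, GCGCANGCG on either strand, was in 20 of the 74 promoters (27.0%, Wilson interval 18.2 to 38.1) against 9.63% of 17491 protein-coding genes. The ETS core CCGGAAG, bound by GABP among others, was in 19 (25.7%, 17.1 to 36.7) against 12.9%. The YY1 core AANATGGC was in 17 (23.0%, 14.9 to 33.7) against 7.46%. E-boxes, CANNTG, were in 70.3% against 72.1%, and the MEF2 consensus was in 0 of 74 (Wilson upper limit 4.93%) against 3.27%. Among members with a promoter, the NRF1 core was in 10 of 32 called higher at day 12, in 2 of 9 called lower and in 7 of 30 not called. The ETS core was in 10, 1 and 8 of these and the YY1 core in 7, 4 and 6. A match is a description of letters, not a binding site.

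The last 120 bases before the start are shown for 6 genes, 4 that rose at both day 4 and day 12, Ndufaf3 that fell at both, and the muscle isoform Cox7a1. Each is on the gene's own strand of GRCm38.p6, 5′ to 3′, and capitals mark an ETS core in Uqcrh and Cox6b1, an NRF1 core in Ndufa5, a pair of overlapping NRF1 cores in Atp5k and a YY1 core in Ndufaf3, whichever strand carries it. E-boxes are not marked. Ndufa5 has another RefSeq start, whose stretch holds none of the marked motifs. The Cox7a1 stretch holds none of the marked motifs.
Uqcrh, chr4:116075071-116075190, minus strand: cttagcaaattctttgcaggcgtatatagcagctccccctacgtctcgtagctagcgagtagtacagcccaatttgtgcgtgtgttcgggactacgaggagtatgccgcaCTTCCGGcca
Cox6b1, chr7:30626115-30626234, minus strand: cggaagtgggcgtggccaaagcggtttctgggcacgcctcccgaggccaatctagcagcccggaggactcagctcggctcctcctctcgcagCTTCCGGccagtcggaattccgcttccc
Ndufa5, chr6:24527691-24527810, minus strand: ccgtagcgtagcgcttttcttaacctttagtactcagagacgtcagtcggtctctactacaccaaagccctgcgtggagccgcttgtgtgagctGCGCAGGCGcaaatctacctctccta
Atp5k, chr5:108434400-108434519, minus strand: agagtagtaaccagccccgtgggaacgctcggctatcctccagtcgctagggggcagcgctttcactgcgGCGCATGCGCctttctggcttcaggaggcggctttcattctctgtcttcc
Ndufaf3, chr9:108567437-108567556, minus strand: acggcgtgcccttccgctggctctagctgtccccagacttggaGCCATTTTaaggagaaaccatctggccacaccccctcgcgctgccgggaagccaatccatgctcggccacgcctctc
Cox7a1, chr7:30184051-30184170, plus strand: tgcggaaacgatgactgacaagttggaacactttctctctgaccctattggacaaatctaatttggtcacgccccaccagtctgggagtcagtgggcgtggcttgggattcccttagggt

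Complex I, the NADH dehydrogenase, had lower calls early and higher calls late. At day 4, 14 of its 33 tested subunits were lower than in growth and 3 were higher, with a median change of -0.32. These shares were 42.4% and 9.09%, against 24.8% and 23.4% of all genes. At day 12, 17 were higher and 3 lower (51.5% and 9.09%, against 30.7% and 30.1%), with a median of 0.53. Against day 4, day 12 had 22 higher and 0 lower (66.7% and 0.0%, against 26.7% and 25.0%). All 33 differences were positive, from 0.05 to 1.72, where 5309 of all 10802 genes had a positive difference. The 6 tested core subunits, which carry the flavin and iron-sulphur clusters or lie beside them, gave no higher call against growth at day 12: Ndufs8 was lower, and Ndufs1, Ndufs3, Ndufs7, Ndufv1 and Ndufv2 were not called. Against day 4, 2 of the 6 were higher at day 12, with a median difference of 0.33. Of the 27 accessory subunits 17 were higher at day 12 and 2, Ndufb1 and Ndufs4, were lower, where 30.7% and 30.1% of all genes were. The split into core and accessory subunits was made after the values were seen, and the difference between them was not tested.

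Ndufs8, an iron-sulphur subunit on the path of electrons to ubiquinone, fell most of the complex I subunits at day 4. Its growth arrays read 12.81, 12.74 and 12.60, its day 4 arrays between 10.92 and 11.17, and its day 6 arrays 10.67 and 10.76. Later arrays lay between, with 11.23, 11.44 and 11.19 at day 8, 11.60, 11.76 and 11.98 at day 10, and 12.04 and 11.88 at day 12. Every growth array was above every DMSO array. The change was -1.68 ± 0.14 at day 4, a 3.21-fold fall (limma adjusted p 6.72e-07), and -0.75 ± 0.16 at day 12 (adjusted p 0.00105). All 5 Ndufs8 probe sets went down at both days, with changes of -1.23 to -1.88 at day 4 and -0.75 to -0.92 at day 12.

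The other complex I subunits below growth at day 12 were an accessory subunit that supports the NADH-binding arm, Ndufs4, and a small membrane-arm subunit, Ndufb1. Ndufs4 was 10.89 ± 0.19 (SD, n = 3) in growth, 10.1 ± 0.03 at day 4 and 10.25 ± 0.26 (n = 2) at day 12, a fall of 0.64 ± 0.16 (SE) at day 12 with a limma adjusted p of 0.00392. Ndufb1 was dimmer, with growth arrays at 4.61, 5.56 and 5.97 and day 12 arrays at 4.78 and 4.31, which overlap. Its fall at day 12 (-0.83 ± 0.33, adjusted p 0.0399) was not called without growth replicate B, growth replicate C or day 12 replicate C, with adjusted p of 0.101, 0.158 and 0.252, nor with no dim filter (0.079) or in a fit of only the groups compared (0.133).

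The largest rise of complex I was that of Ndufa5, an accessory subunit of the arm that reaches ubiquinone. It read 9.86, 10.15 and 9.67 in growth, 10.39, 10.28 and 10.31 at day 4, 11.47, 11.45 and 11.35 at day 10, and 11.65 and 11.36 at day 12. All DMSO arrays lay above all growth arrays. The rise at day 12 was 1.61 ± 0.16, or 3.05-fold (limma adjusted p 1.99e-06), and a second Ndufa5 probe set rose by 1.53. At day 4 it was 0.43 ± 0.15 (adjusted p 0.0243), a call lost on leaving out growth replicate A or C or day 4 replicate A or C, with adjusted p from 0.0517 to 0.111.

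Ndufb10 and Ndufb6 belong to the membrane arm, which pumps protons. Ndufb10 went from 9.85 ± 0.11 in growth (SD, n = 3) to 10.40 ± 0.19 at day 4 and 11.28 ± 0.11 at day 12 (n = 2), a rise of 1.43 ± 0.16 (limma adjusted p 5.19e-06). Ndufb6 was late: growth read 10.43, 11.09 and 10.93, day 10 read 11.28, 11.17 and 10.93, and day 12 read 12.06 and 12.30. Both day 12 arrays of Ndufb6 lay above all growth arrays, while day 10 overlapped growth. Its rise at day 12 was 1.37 ± 0.23 (adjusted p 0.000179), against 1.06 ± 0.23 from day 10 to day 12 (adjusted p 0.0202), and its second probe set rose by 0.73.

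Ndufv3, an accessory subunit of the NADH-binding arm, showed both directions. Its arrays read 10.98, 10.66 and 10.87 in growth, 10.00, 10.06 and 10.13 at day 4, 10.88 and 10.79 at day 6, 12.01, 11.87 and 11.80 at day 10, and 11.98 and 11.59 at day 12. The day 4 arrays were below all others and those of days 10 and 12 above all growth arrays. It fell by 0.78 ± 0.17 at day 4 (limma adjusted p 0.00175) and was 1.72 ± 0.19 higher at day 12 than at day 4 (adjusted p 7.87e-06), the largest such difference in complex I. Ndufb2, Ndufb9, Ndufc1 and Ndufs5 were also below growth at day 4, with changes of -0.47 to -0.67, and above it at day 12, by 0.53 to 0.76. Ndufb11, another membrane-arm subunit, was above growth at both, by 0.64 ± 0.15 and 0.77 ± 0.16 (adjusted p 0.00263 and 0.00103), and Ndufs1, the largest core subunit, had the narrowest range of group means, 0.22.

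The complex I assembly factors gave no higher call at day 12, and the difference between them and the subunits was not tested. Of the 8 Ndufaf genes 0 were called higher at day 12, where 30.7% of all genes were, and 4 lower, where 30.1% were. The 4 were Ndufaf2, Ndufaf3, Ndufaf6 and Ndufaf7, and the median change of the 8 genes was -0.56. At day 4, 1 was higher and 3 were lower, where 23.4% and 24.8% of all genes were. The list is short, and its counts were not tested against the shares of all genes. Ndufaf1, which works on the membrane arm, and Ndufaf5, which modifies Ndufs7, were called in no comparison with growth.

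Ndufaf3 is an early factor that works with Ndufaf4 on the ubiquinone-binding arm. It read 9.07, 9.03 and 9.06 in growth, 6.42, 6.56 and 6.40 at day 4, 6.37 and 6.97 at day 6, 6.91, 7.31 and 6.92 at day 8, 8.16, 7.82 and 7.98 at day 10, and 8.30 and 7.95 at day 12. No DMSO array reached a growth array. The fall was 2.59 ± 0.18 at day 4, 6.02-fold (limma adjusted p 8.86e-08), and 0.93 ± 0.20 at day 12 (adjusted p 0.00115), and day 12 was 1.66 ± 0.20 above day 4 (adjusted p 1.82e-05).

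Ndufaf7, a methyltransferase needed for complex I assembly, followed a similar course. It read 7.79, 8.16 and 8.13 in growth, 5.97, 5.87 and 5.54 at day 4, 7.26, 7.54 and 7.37 at day 10, and 7.22 and 7.20 at day 12. It fell by 2.23 ± 0.16 at day 4 (4.70-fold, limma adjusted p 1.37e-07) and was 0.82 ± 0.18 under growth at day 12 (adjusted p 0.00136). Ndufaf4, the partner of Ndufaf3, was 9.22 ± 0.09 in growth (SD, n = 3), 9.94 ± 0.26 at day 4 and 8.89 ± 0.16 at day 12 (n = 2), a rise of 0.72 ± 0.17 at day 4 (adjusted p 0.00268) and a fall of 1.05 ± 0.19 from day 4 to day 12 (adjusted p 0.000407).

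Ndufaf6, needed for an early step of the same arm, had a lower mean at each later day. It read 8.46, 8.82 and 8.62 in growth, 7.85, 8.06 and 8.24 at day 4, 7.58 and 7.37 at day 6, 7.87, 6.92 and 6.92 at day 8, 6.58, 6.57 and 6.05 at day 10, and 6.30 and 6.13 at day 12. The array at 7.87 is day 8 replicate A. The difference from growth was -0.58 ± 0.24 at day 4 (limma adjusted p 0.0617, not called) and -2.42 ± 0.27 at day 12, a 5.34-fold fall (adjusted p 4.99e-06). A single probe set reads each of Ndufaf3, Ndufaf6 and Ndufaf7.

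**Figure D3:**
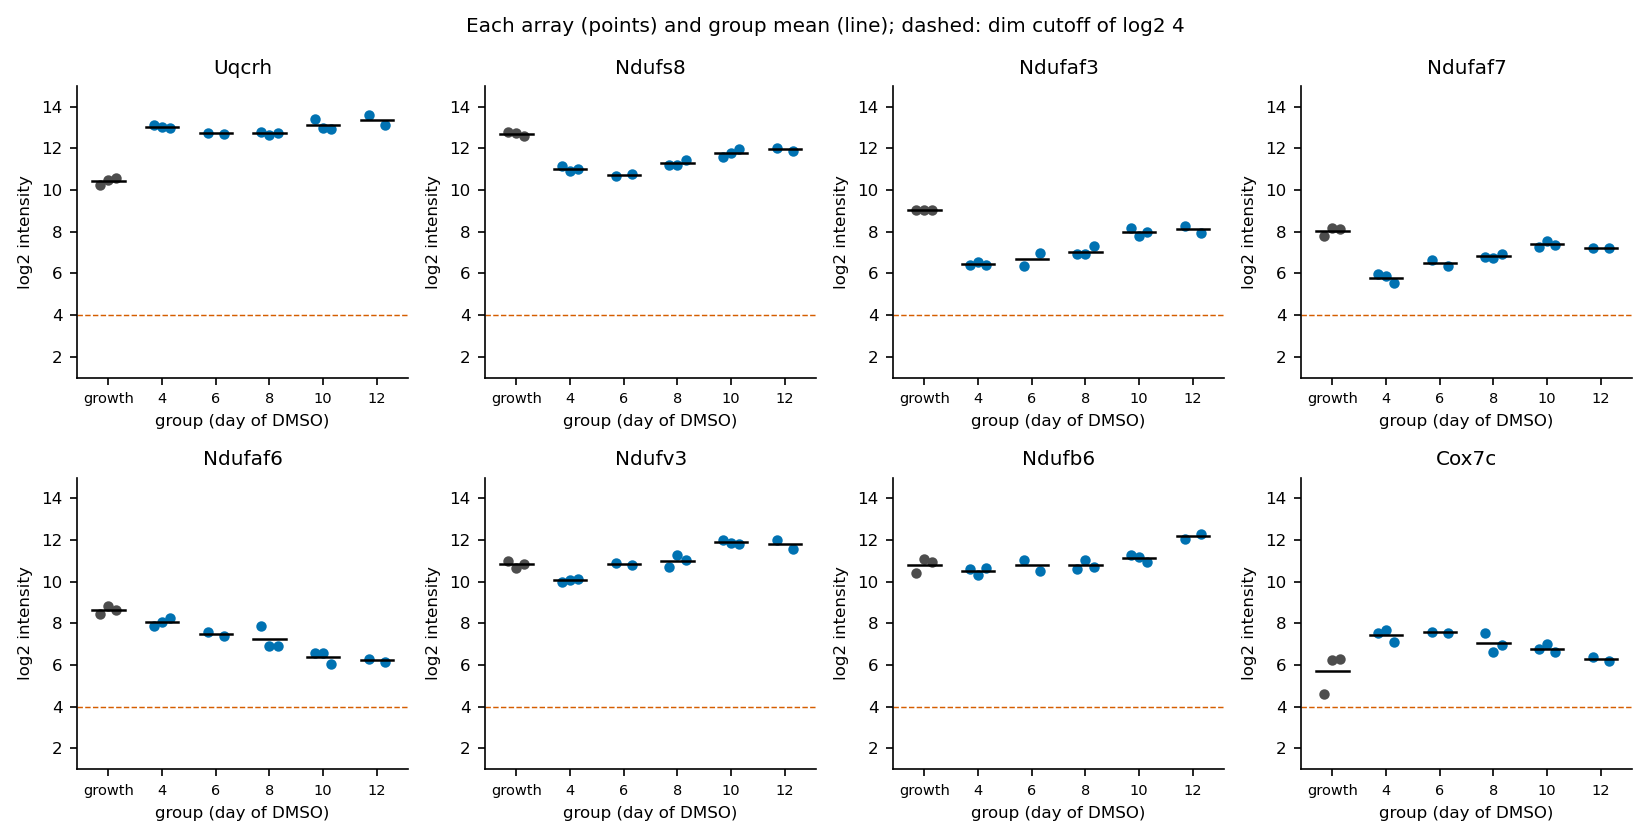
Log2 intensity of every array (points) and group mean (lines) for 8 genes, with growth in grey, days of DMSO in blue and the dim cutoff of log2 4 dashed. Uqcrh rises from 10.26 to 10.57 in growth to at least 12.66 in every DMSO array, Ndufs8, Ndufaf3 and Ndufaf7 drop and partly return, and Ndufaf6 keeps falling.

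Complex II, succinate dehydrogenase, is wholly encoded in the nucleus and also serves the citric acid cycle. None of its 4 genes was called against growth at days 4 to 10. The flavoprotein Sdha read 10.93, 10.96 and 10.51 in growth and 10.51 and 10.13 at day 12, and its change of -0.48 ± 0.19 carried a limma adjusted p of 0.0449. That call was lost in 13 of 27 alternative settings, with an adjusted p of 0.332 without day 12 replicate C, and also without growth replicate A or B, day 4 replicate B or C, day 8 replicate B or C or day 10 replicate A or C, at 0.0501 to 0.122. The iron-sulphur subunit Sdhb changed by 0.14 ± 0.20 at day 12, the membrane anchors Sdhc and Sdhd by 0.16 ± 0.21 and 0.08 ± 0.20, with adjusted p from 0.523 to 0.757. From day 8 to day 10 Sdhc was higher by 0.63 ± 0.19 (adjusted p 0.0386).

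Complex III, which passes electrons from ubiquinol to cytochrome c, held the largest early rise of all members. At day 4, 2 of its 8 genes were higher, Uqcrh and Uqcrc2, and 1, Uqcrq, was lower (25.0% and 12.5%, against 23.4% and 24.8% of all genes). At day 12, 4 were higher, Uqcrh, Uqcr11, Uqcrc2 and Uqcrb, and 0 lower, where 30.7% of all genes were higher.

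Uqcrh is the acidic hinge subunit at the docking site of cytochrome c. It read 10.26, 10.49 and 10.57 in growth and 13.12, 13.03 and 12.99 at day 4, then 12.75 and 12.69 at day 6, 12.81, 12.75 and 12.66 at day 8, 13.43, 12.97 and 12.93 at day 10, and 13.63 and 13.11 at day 12. Growth and DMSO arrays were separated by over 2 log2, while the DMSO days lay close together. The rise was 2.61 ± 0.17 at day 4, 6.09-fold (limma adjusted p 5.67e-08), and 2.93 ± 0.19 at day 12, 7.62-fold (adjusted p 3.98e-08). Its second probe set went from 10.28 in growth to 12.28 at day 4 and 12.44 at day 12.

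Uqcr11, a small subunit at the edge of the complex, rose late. Growth arrays read 9.71, 9.60 and 9.67, day 8 arrays 9.47, 9.80 and 9.56, day 10 arrays 10.92, 10.10 and 10.57, and day 12 arrays 11.24 and 10.81. The rise was 1.36 ± 0.23 at day 12 (limma adjusted p 0.0002). The core protein Uqcrc2 rose by 0.65 ± 0.17 at day 4 and 1.10 ± 0.19 at day 12 (adjusted p 0.00656 and 0.000234), but its second probe set by 0.54 and 0.19, while its partner Uqcrc1 changed by -0.12 ± 0.18 and -0.36 ± 0.20 (0.648 and 0.138). The ubiquinone-site subunit Uqcrq fell by 0.82 ± 0.22 at day 4 (adjusted p 0.00624) and was 1.13 ± 0.24 higher at day 12 than at day 4 (adjusted p 0.0016). Uqcrfs1, the Rieske iron-sulphur protein, changed by 0.20 ± 0.17 at day 12 (adjusted p 0.319).

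Complex IV, cytochrome c oxidase, had 11 widely expressed members here, counting Ndufa4, now assigned to it, and the supercomplex factor Cox7a2l. At day 4, 3 were higher (Cox6b1, Cox7a2l and Cox7c) and 2 lower (Cox5b and Cox6a1), shares of 27.3% and 18.2% against 23.4% and 24.8% of all genes. At day 12, 3 were higher (Cox6b1, Cox7a2 and Ndufa4), a share of 27.3% against 30.7%, and 0 lower. The call of Ndufa4 at day 12 (0.71 ± 0.24, limma adjusted p 0.0199) was lost without growth replicate C or day 12 replicate A (0.0593 and 0.131). Cox4i1, the largest nuclear subunit, was 13.04 ± 0.10 in growth (SD, n = 3) and 13.28 ± 0.17 at day 12 (n = 2), and Cox8a was 10.68 ± 0.15 and 10.98 ± 0.41. Neither was called at any day.

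Cox6b1, which joins the monomers of the dimer, rose at both ends of the course. It read 12.38, 12.34 and 12.17 in growth, 12.94, 12.93 and 13.00 at day 4, and 13.76 and 13.48 at day 12, with no overlap between these groups. Its changes were 0.66 ± 0.14 and 1.32 ± 0.16 (limma adjusted p 0.00162 and 8.94e-06). Cox7c, a small membrane subunit, read 4.61, 6.25 and 6.27 in growth, 7.54, 7.67 and 7.12 at day 4 and 6.37 and 6.21 at day 12. It rose by 1.73 ± 0.37 at day 4 (adjusted p 0.0015), from a growth group with an SD of 0.95. Its second probe set, at 5.46 in growth, rose by 1.07. Cox7c was 1.15 ± 0.41 lower at day 12 than at day 4 (adjusted p 0.0302). That call was lost without day 4 replicate A or B (0.067 and 0.0808), without probe sets open to cross-hybridization (0.0775) and with no dim filter (0.0695). It was also lost without day 12 replicate A or C, where the differences were -1.23 and -1.07. Cox7a2l, read by a probe set open to cross-hybridization, rose by 0.93 ± 0.18 at day 4 (adjusted p 0.000651), and its other probe sets by 0.97 and 0.98. Cox5b, the zinc-binding subunit, went from 13.02 ± 0.13 to 12.18 ± 0.13 at day 4 (SD, n = 3), a fall of 0.84 ± 0.16 (adjusted p 0.000748), and was 12.93 ± 0.04 at day 12 (n = 2).

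The striated muscle isoforms of complex IV covered wide ranges. Cox6a2, the striated muscle form of Cox6a, read 3.47, 4.70 and 4.90 in growth, 3.53, 4.26 and 3.84 at day 4, 5.06 and 4.48 at day 6, 4.72, 6.35 and 6.01 at day 8, 7.26, 7.20 and 7.54 at day 10, and 8.68 and 8.02 at day 12. The lowest of the day 8 arrays is replicate A. All arrays of days 10 and 12 lay above all earlier ones. The rise at day 12 was 4.00 ± 0.47, 16-fold (limma adjusted p 8.04e-06), and a second probe set, read at 1.93 in growth, reached 6.01. Cox6a1 fell by 0.67 ± 0.16 at day 4 (adjusted p 0.00406) and changed by 0.19 ± 0.18 at day 12 (0.402).

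Cox7a1, the striated muscle form of Cox7a, was present in growth, went under the cutoff and came back. It read 6.35, 6.89 and 6.81 in growth, between 2.95 and 3.27 on all 8 arrays of days 4 to 8, 7.31, 6.28 and 6.15 at day 10, and 8.74 and 8.60 at day 12. At day 4 it was at least 6.43-fold lower than in growth (limma adjusted p 1.08e-07), day 10 overlapped growth, and day 12 was 3.97-fold higher (1.99 ± 0.28, adjusted p 3.73e-05). From day 4 to day 12 the rise was at least 25.5-fold (adjusted p 9.63e-09). Cox7a2 rose by 0.57 ± 0.16 at day 12 (adjusted p 0.00566). Cox8b, the striated muscle form of Cox8, stayed between 3.04 and 3.31 on all 16 arrays, which gives only that it was not above the cutoff.

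Each tissue form was set against its partner within arrays, days 10 and 12 together against growth, with 2-sided exact permutation tests over 5 and 3 arrays. The change of Cox6a2 exceeded that of Cox6a1 by 3.11 log2 (exact p 0.0179, the smallest this design allows, 0.0714 after adjustment over 4 pairs). Cox7a1 exceeded Cox7a2 by 0.30 (exact p 0.625). That pool joins unlike days for Cox7a1, with means of 6.58 at day 10 and 8.67 at day 12, against 6.69 in growth. The pair was not tested at day 12 alone. With 4 pairs and this many arrays a single pair cannot go below an adjusted value of 0.0714, so a test of 4 pairs could not give a pass to it alone. The pairs of Cox8b and Cox4i2, both under the cutoff on all growth arrays, give no measured difference, yet they count among the 4.

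Isoforms known from other tissues moved too. Cox6b2, named for its expression in testis, read 4.90, 6.19 and 5.99 in growth, 7.67, 8.28 and 8.30 at day 4, and 7.15 and 6.85 at day 12. It was highest at day 4, with a rise of 2.39 ± 0.37 (5.24-fold, limma adjusted p 0.000149). At day 12 the rise was 1.30 ± 0.42 (adjusted p 0.0151), lost without growth replicate A or day 12 replicate A (0.0624 and 0.0944). The testis forms Cox7b2 and Cox8c lay under the cutoff on every array.

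Ndufa4l2, a paralog of Ndufa4 known to respond to low oxygen, read 5.06, 4.89 and 5.06 in growth, 5.14, 6.40 and 6.94 at day 4, 3.87, 3.85 and 3.21 at day 8, and 7.06 and 6.62 at day 12. It was above growth at day 4, under the cutoff at day 8 and above growth again at day 12. The rise was 1.16 ± 0.35 at day 4 (limma adjusted p 0.0133), lost without day 4 replicate B or C (0.0501 and 0.0695), and 1.84 ± 0.39 at day 12 (adjusted p 0.000992). At day 8 it was at least 2.01-fold lower (adjusted p 0.00458). Cox4i2, the form of Cox4 best known from lung, was above the cutoff on 5 arrays, both of day 6, 1 of day 10 and both of day 12, where it read 5.17 and 4.12. At day 12 it was at least 1.57-fold higher than in growth (adjusted p 0.000725). Cox4i2 passed the dim filter only through these 5 DMSO arrays, so a call lower than growth was hardly possible.

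**Figure D4:**
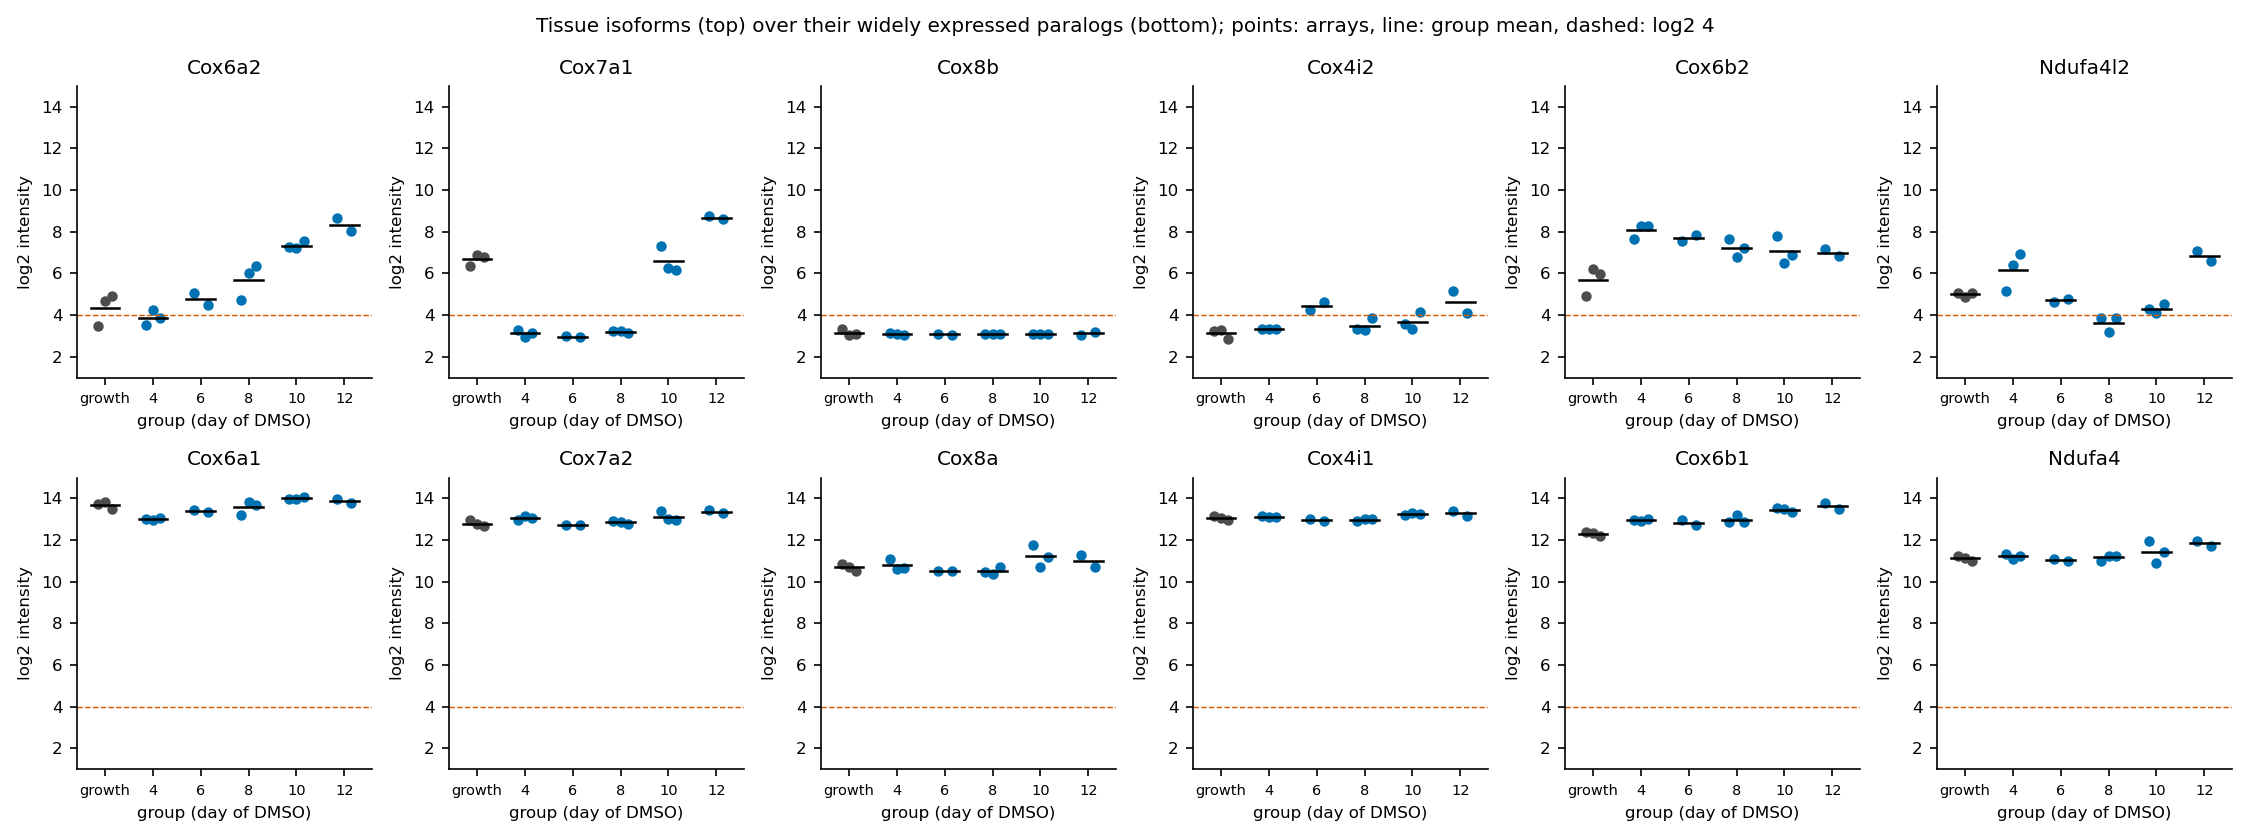
Log2 intensity of every array (points) and group mean (lines) of 6 tissue isoforms of complex IV (top) and their widely expressed paralogs (bottom), in growth (grey) and by day of DMSO (blue), with the dim cutoff of log2 4 dashed. Cox6a2 climbs to 8.02 to 8.68 at day 12, Cox7a1 is under the cutoff at days 4 to 8, and Cox8b is under it on all arrays. Levels are not comparable between panels.

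Complex V, the ATP synthase, had 17 tested genes. At day 4, 2 were higher (Atp5c1 and Atp5k) and 4 lower (Atp5b, Atp5g1, Atp5h and Atp5j2), shares of 11.8% and 23.5% against 23.4% and 24.8% of all genes. At day 12, 9 were higher and 3 lower (52.9% and 17.6%, against 30.7% and 30.1%), with a median change of 0.50. The 9 were Atp5c1, Atp5e, Atp5g3, Atp5h, Atp5j, Atp5k, Atp5l, Atp5md and Atp5pb. Atp5l (subunit g), with 10.57, 10.63 and 10.81 in growth and 11.86 and 11.73 at day 12, rose by 1.13 ± 0.19 (limma adjusted p 0.00015). Atp5k (subunit e) rose by 0.67 ± 0.21 at day 4 and 0.92 ± 0.23 at day 12 (adjusted p 0.016 and 0.00356), calls that were lost at day 4 without growth replicate C or day 4 replicate A and at day 12 without day 12 replicate A (0.0802, 0.063 and 0.0768). Atp5pb (subunit b) rose by 0.79 ± 0.17 at day 12 (adjusted p 0.00117, and 0.093 when probe sets open to cross-hybridization were left out) and Atp5h (subunit d), after a fall of 0.49 ± 0.15 at day 4, by 0.57 ± 0.16 (0.0127 and 0.00806).

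Subunits of the catalytic head differed. Atp5c1, the rotating gamma subunit, rose by 0.66 ± 0.12 at day 4 and 0.68 ± 0.14 at day 12 (limma adjusted p 0.000629 and 0.000748). The day 12 call was lost when probe sets open to cross-hybridization were left out (adjusted p 0.224). The catalytic beta subunit, Atp5b, read 13.13, 12.97 and 13.09 in growth and 12.56, 12.43 and 12.70 at day 4, a fall of 0.50 ± 0.13 (adjusted p 0.00644). At day 12 its fall was 0.40 ± 0.15 (adjusted p 0.0286), lost without growth replicate A or C or day 12 replicate C (0.0607, 0.0598 and 0.162). The alpha subunit, Atp5a1, fell by 0.71 ± 0.17 at day 12 (adjusted p 0.00227), but its probe sets disagreed: another bright one went from 12.25 in growth to 12.38 at day 12, and the mean of the gene's probe sets was not called (adjusted p 0.409). Atp5e (epsilon) was 1.09 ± 0.25 higher at day 12 than at day 4 (adjusted p 0.00267). Its call against growth at day 12 (0.67 ± 0.25, adjusted p 0.0329) was lost without growth replicate A or B or without either day 12 array (0.0576 to 0.124). Atp5d (delta) changed by 0.23 ± 0.16 at day 12 (0.227).

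The c ring is made of one protein encoded by several genes, whose mature products are the same. Atp5g1 read 11.10, 10.72 and 10.73 in growth, 10.05, 9.48 and 9.61 at day 4, and 11.17 and 10.71 at day 12. It fell by 1.14 ± 0.18 at day 4 (limma adjusted p 0.000153) and was level with growth at day 12 within its error (0.09 ± 0.20, adjusted p 0.724). Atp5g2 fell by 0.45 ± 0.14 at day 12 (adjusted p 0.0134, and 0.138 without day 12 replicate C), and Atp5g3 rose by 0.50 ± 0.19 (adjusted p 0.0345).

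Among the 47 members with several probe sets past the cutoff, all probe sets went the same way in 40 at day 4 and in 41 at day 12. The exceptions among called genes were Atp5j2 and Ndufb2 at day 4 and Atp5a1 at day 12. Of the 86 tested, 18 were read by probe sets that may cross-hybridize (names ending in _x_at or _s_at), Uqcrh, Ndufaf7 and Cox7c among them. ND5, a complex I subunit, was the only 1 of 26 mitochondrial gene symbols looked for that the array names. It read 12.54 ± 0.24 in growth, 11.46 ± 0.29 at day 10 (SD, n = 3) and 11.99 ± 0.47 at day 12 (n = 2). ND5 was called lower at day 10, while its change at day 12 was -0.56 ± 0.24 (limma adjusted p 0.0554). It is not one of the 90 genes.

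Shares of companion genes are set against those of all genes tested, 23.4% higher and 24.8% lower at day 4 and 30.7% higher and 30.1% lower at day 12. Of 33 tested assembly factors outside the Nduf root, 18 were lower and 3 higher at day 4 (54.5% and 9.09%), and 12 and 5 at day 12 (36.4% and 15.2%), with a median of -0.19. Among them the copper chaperone Sco2 fell by 1.70, the haem synthesis enzyme Cox10 by 2.18 and the complex I factor Ecsit by 1.64 at day 12, while Pet100, a complex IV factor, rose by 1.99 (limma adjusted p 3.42e-05, 0.00858, 0.000127 and 2.01e-05). Of 33 mitochondrial ribosome proteins 20 were lower and 1 higher at day 4 (60.6% and 3.03%), and 18 and 3 at day 12 (54.5% and 9.09%). Of 7 tested genes for cytochrome c and carriers 2 were higher and 1 lower at day 12 (28.6% and 14.3%). Slc25a4, the muscle form of the ATP and ADP exchanger, rose by 3.23 at day 4 and by 4.44 at day 12. Slc25a5, its widely expressed form, changed by -0.03 and -0.90 at these days, and Cycs, cytochrome c itself, by -0.45 and 0.99.

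Fuel pathways differed in count. Of 18 glycolysis genes 15 were higher at day 12 (83.3%) and 0 lower, and the muscle phosphoglycerate mutase Pgam2 went from a mean of 3.70 ± 0.69 (SD), under the cutoff, to 11.8 ± 0.34. Of 17 fatty acid oxidation genes 0 were higher and 8 lower at day 4 (47.1%), and 7 higher and 5 lower at day 12 (41.2% and 29.4%). Set against day 4, 10 were higher and 2 lower at day 12 (58.8% and 11.8%, against 26.7% and 25.0% of all genes). Cd36, a fatty acid importer, was under the cutoff in growth and at 9.04 ± 0.23 (SD) at day 12, so it passed the dim filter only through DMSO arrays. Of 17 citric acid cycle genes 4 were higher and 5 lower at day 12 (23.5% and 29.4%, near the shares of all genes), with a median change of -0.04. Cs, citrate synthase, rose by 1.48 at day 4 and by 1.09 at day 12. Of 20 tested regulators of mitochondrial biogenesis 6 were higher (30.0%, near the share of all genes) and 4 lower (20.0%) at day 12. Nrf1, the factor named above, changed by -1.5 ± 0.16 at day 4 and -2.29 ± 0.18 at day 12 (limma adjusted p 5.41e-06 and 2.09e-07), whereas the coactivator Ppargc1a and the nuclear receptor Esrrg, both called higher, had means under the cutoff in growth and of 7.33 ± 0.23 and 6.98 ± 0.66 at day 12. Gabpa and Yy1 changed by 0.26 and -0.05.

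**Figure D5:**
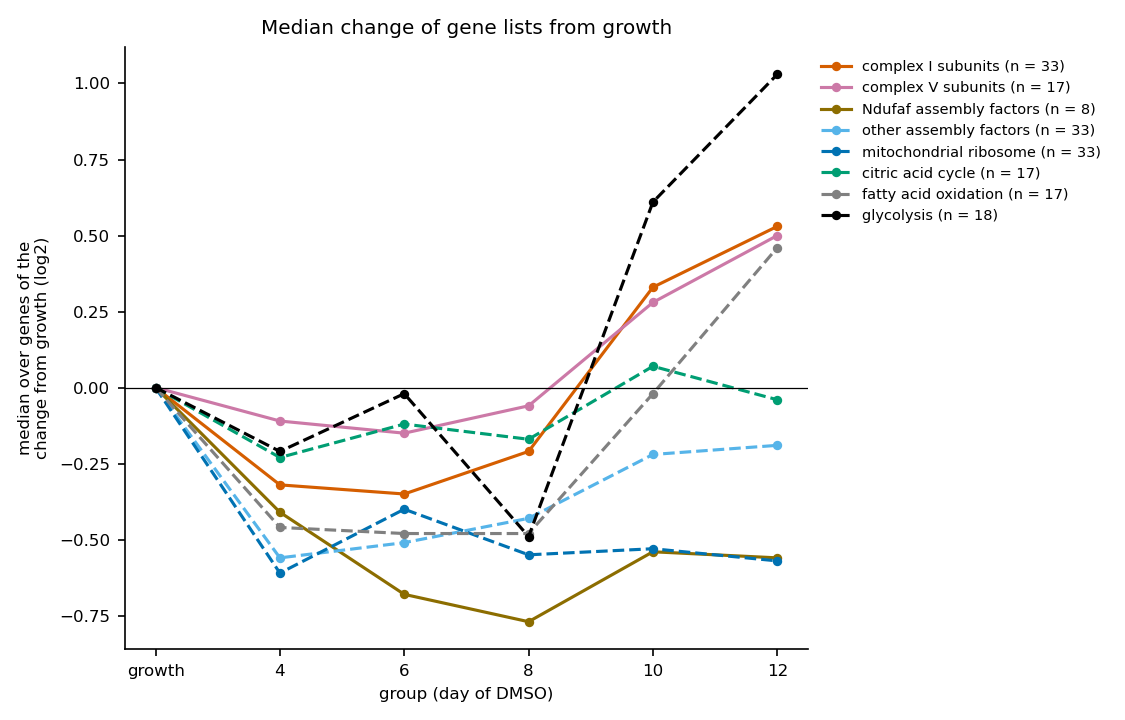
Median change from growth (vertical axis, log2) of 3 groups of members (solid) and 5 companion lists (dashed) at each day of DMSO (horizontal axis), with the number of tested genes in brackets. Complex I, complex V and glycolysis are above 0 at day 12, and the Ndufaf factors and mitochondrial ribosome proteins remain below it, at -0.56 and -0.57.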

How the data were processed

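RNA of 16 P19CL6 samples was read on 1-colour Affymetrix arrays, and the authors deposited 1 table of log2 values for 45101 probe sets, made with GCRMA per the submitters' processing notes. The GCRMA version and the log base are not given in the sources used here, and log2 was read from the range of the values. GCRMA corrects background by probe sequence and quantile-normalizes, so that array medians lay between 3.16 and 3.27 and a shift common to all genes cannot be seen. Probe sets were named through GEO's platform annotation: 34945 name a single gene, 932 name several and were left out of the tests. Per gene the probe set with the highest mean was kept, and 10802 genes above log2 4 on at least 2 arrays were fitted by lmFit and eBayes of limma (version 3.58.1, R version 4.3.3), with 10 residual and 3.53 prior degrees of freedom. P-values were adjusted by Benjamini-Hochberg over all of them, and the fit was tested on simulated data. An "at least" fold sets the dim group at the cutoff of log2 4. Isoform pairs were tested with SciPy 1.17.1 in Python 3.11.15, and figures were drawn with matplotlib 3.10.9. The number of arrays limits the precision.

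The members and lists were chosen with earlier results of these data known. Named genes are the complex IV tissue isoforms and their paralogs, the Sdh genes, and per complex the largest rises and falls and the widest and narrowest ranges. Ndufs4, Ndufb2, Ndufb9, Ndufc1, Ndufs5, Atp5h and any other gene outside that rule were named after their values were seen, as was the comparison of day 10 with day 8. The labels do not say what a replicate letter marks, so p-values measure the spread between these samples.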

Additional observations from a re-analysis of the deposited data

Results flagged for a closer look

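Some members were called lower than growth at day 4 and higher than growth at day 12, comparisons that share the growth arrays, and were called higher at day 12 in the direct comparison of these days. The differences between day 12 and day 4 were 1.72 for Ndufv3, 1.43 for Ndufb2, 1.26 for Ndufs5, 1.19 for Ndufc1, 1.01 for Ndufb9, 1.07 for Atp5h and 5.54 for Cox7a1, all on the log2 scale. The 5.54 of Cox7a1 is a fitted value against arrays under the cutoff, where the bound is a rise of at least 25.5-fold.

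Probe sets that name several genes were left out of the tests, and 4 of them were higher on both day 12 arrays than on all growth arrays. The difference of means was 1.03 for the probe set of Ndufs5 and its pseudogene Ndufs5-ps and 0.90 for that of Ndufab1 and Ndufab1-ps. The probe sets shared by Ndufb4, Ndufb4b and Ndufb4c differed by 0.65 and 0.51. Of the other probe sets above the cutoff on all 16 arrays, that of Ndufs6 and Ndufs6b was lower on both day 12 arrays, by a difference of -0.25, and that of Ndufa11 and Ndufa11b overlapped growth at -0.02. These probe sets cannot tell the gene from its copies.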

How the results depend on the processing

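Of 140 calls of named genes repeated under up to 27 settings (3761 repeats), 3577 kept their direction and call, 184 lost the call and 0 reversed, and 99 calls held in every setting run. Requiring at least 1 log2 left 4 higher and 6 lower at day 4, 4 and 7 at day 6, 4 and 8 at day 8, 10 and 3 at day 10, 13 and 1 at day 12, and 22 higher at day 12 against day 4. An adjusted p under 0.01 left 7 higher and 9 lower at day 6, 6 lower at day 12 and 2 lower at day 12 against day 4. Fitting only the groups compared left 7 lower at day 12. The 5 lower calls at day 12 against day 4 became 3 with no dim filter, 3 without _x_at and _s_at probe sets and 3 with the replicate block. Leaving out single arrays gave 5 to 11 higher and 8 to 23 lower at day 6, 5 to 13 lower at day 12 and 2 to 5 lower at day 12 against day 4. The shares of all genes under these settings are not given here, and the cause of these shifts was not tested. The replicate letters were not used to pair the samples in the main fit. Over 35 same-letter pairs the correlation of deviations ran from -0.21 to 0.32 with a median of 0.06, against a median of -0.03 for other letters. Of the 16 arrays, 12 correlated best with their own letter. What arrays of a letter share was not tested. With the replicate block, day 12 against growth gave 38 higher and 11 lower. It also ended the calls of Ndufb1 and Atp5e at day 12 (adjusted p 0.0617 and 0.0562) and of Cox7c, Cox6b2 and Ndufa4 at day 12 against day 4 (0.0577, 0.0679 and 0.064). Fitting only the groups compared ended those of Ndufa5 and Ndufa4l2 at day 4 (0.0632 and 0.0777) and of Atp5b, Atp5g2 and Sdha at day 12 (0.0911, 0.0758 and 0.121), and of Cox7a2l at day 12 against day 4 (0.0604). Members under the cutoff, such as Cox8b, have only an upper bound.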
